A study of Homo sapiens with 8 samples.

Results

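Cytosolic ribosomal protein genes encode the proteins of the ribosomes that translate nuclear mRNAs. They were taken from the gene table by type and name alone: protein-coding genes named RPL or RPS plus a number, with an optional A or X, and RPLP0, RPLP1, RPLP2 and RPSA. The rule used no measured value and found 77 of the 58735 genes in the table, 46 of the large and 31 of the small ribosomal subunit, and all 77 had enough counts to be tested. The genes FAU and RACK1, which also give ribosomal proteins, lie outside the naming rule and are described separately.

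The study measured mRNA in Caco-2, a human colorectal carcinoma line used as a model of intestinal epithelium, in 3 untreated libraries (given phosphate-buffered saline) and 3 libraries of cells given M2-exo. M2-exo are vesicles that the labels trace to THP-1, a monocytic leukaemia line; M2 is the usual name of an alternatively activated macrophage state. All 6 libraries are labelled wild type. The labels also call both lines stem cells, and neither dose nor duration of the treatment is given in the sources used here. Nothing in the labels says that the replicates came from separate cultures, so the p-values below measure the spread between these libraries, which may be technical, and a cell line stands for 1 donor.

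A ribosome has a small subunit, which reads the mRNA, and a large subunit, which joins amino acids and from which the new protein emerges. Most of their proteins are present once per ribosome, and the stalk proteins RPLP1 and RPLP2 are the known exception. The mRNAs of these proteins are abundant, short and typically begin with a C followed by a run of pyrimidines, the 5′ terminal oligopyrimidine (TOP) sequence, through which growth signals of the mTOR pathway control their translation. In a proliferating epithelial line they form one of the most abundant groups of mRNA.

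The TOP sequence was looked for in the RefSeq start sites of build GRCh38.p14, since it is what most of these genes share in sequence. RefSeq starts were matched by symbol for 62 of the 77 genes, with 77 entries in all, since some genes have several. A C at the listed start with 4 pyrimidines (C or T) after it, read on the gene's own strand only, was found in 46 of the 62 genes (74.2%), against 5.14% of the 27305 symbols in the RefSeq table. By entry, 46 of 77 (59.7%) held it, against 4.07% of all 35116 entries. Each line below runs 5′ to 3′ over 30 bases, 15 before the listed start and 15 from it. Capitals mark the unbroken pyrimidine run at the start where the motif is present. The first 10 hold it and the last 4 do not, and they are shown because the values below turn on most of these genes.
RPLP0: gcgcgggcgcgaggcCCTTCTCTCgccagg
RPLP2: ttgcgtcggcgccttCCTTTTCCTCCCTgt
RPL13A: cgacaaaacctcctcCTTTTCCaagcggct
RPL41: cggaacttcgcctttCTCTCggccttagcg
RPL36: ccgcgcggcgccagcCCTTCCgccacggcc
RPSA: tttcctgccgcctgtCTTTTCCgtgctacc
RPS3: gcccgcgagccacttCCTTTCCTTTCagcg
RPS6: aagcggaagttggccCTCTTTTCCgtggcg
RPS19: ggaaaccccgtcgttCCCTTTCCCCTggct
RPS14: ccgccccctcccactCTCTCTTTCCggtgt
RPL3: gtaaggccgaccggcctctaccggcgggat
RPL4: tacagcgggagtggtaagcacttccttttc
RPS28: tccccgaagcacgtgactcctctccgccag
RPS4X: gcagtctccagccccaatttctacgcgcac

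These windows lie on chromosome 12 from 120201097 to 120201126, minus strand, for RPLP0, on chromosome 11 from 75399503 to 75399532, plus strand, for RPS3, and on chromosome 22 from 39319609 to 39319638, minus strand, for RPL3. They span the gene's listed start and so hold the last bases before it and the first of the transcript. The listed start is an annotated position, not one measured in Caco-2. With the search widened to any position from 10 bases before the start to 15 after it, 57 of the 62 genes (91.9%) and 38.4% of all symbols held the motif, so the wider window tells the group apart less well.

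Library totals ran from 15608937 to 18324599 counts. The 12 fixed epithelial and enterocyte markers summed to 9497 to 12780 CPM (counts scaled to a fixed library total) in the 6 libraries, with KRT20 at 0 to 5 counts. Mean CPM of the 11 tested ones ran from 2.68 for SI to 4945 for KRT8. Among the enterocyte genes FABP1 averaged 17.9, ALPI 36.3, VIL1 561 and APOA1 666 CPM. The 12 macrophage markers summed to 12.9 to 21.8 CPM, with CD68 and TYROBP at 0 counts in every library and 7 of the 12 under 10 counts in each. The other 5 had counts in every library: CD14 94 to 158, CSF1R 42 to 98, LYZ 27 to 84, AIF1 23 to 53 and FCER1G 12 to 24. The part of read assignment in the values at 0 was not tested. The 6 fibroblast markers summed to 27.0 to 47.0 CPM. Mitochondrially encoded genes made up 4.16% of counts in untreated 1, against 7.01% to 8.11% in the other 5 libraries. Untreated 1 and untreated 3 often held the highest value of a gene, and values without one of them are given beside many of the fold changes that moved most. As in any bulk sample, a lower level cannot be told from fewer cells that express the gene.

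Untreated 1 to 3 gave 5.04%, 4.78% and 5.23% of their counts to the 77 genes, and treated 1 to 3 gave 4.63%, 4.80% and 4.79%. The means were 5.01% ± 0.226 and 4.74% ± 0.0961 (SD, n = 3 each), and the groups overlapped, since untreated 2 lay below 2 of the treated libraries. The log2 ratio of the mean shares, treated over untreated, was -0.08 with all libraries, -0.08 without untreated 1 and -0.05 without untreated 3. Large subunit genes took 2.82% ± 0.166 of counts in untreated and 2.69% ± 0.105 in treated cells, and small subunit genes 2.19% ± 0.0890 and 2.06% ± 0.0348. The ratio of large to small subunit counts was 1.23, 1.29 and 1.36 in untreated and 1.25, 1.30 and 1.37 in treated libraries. Its group means differed by 0.0171, against SDs of 0.0644 and 0.0640. Of counts of nuclear protein-coding genes alone, the share was 5.44% ± 0.244 in untreated and 5.23% ± 0.111 in treated cells.

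**Figure D1:**
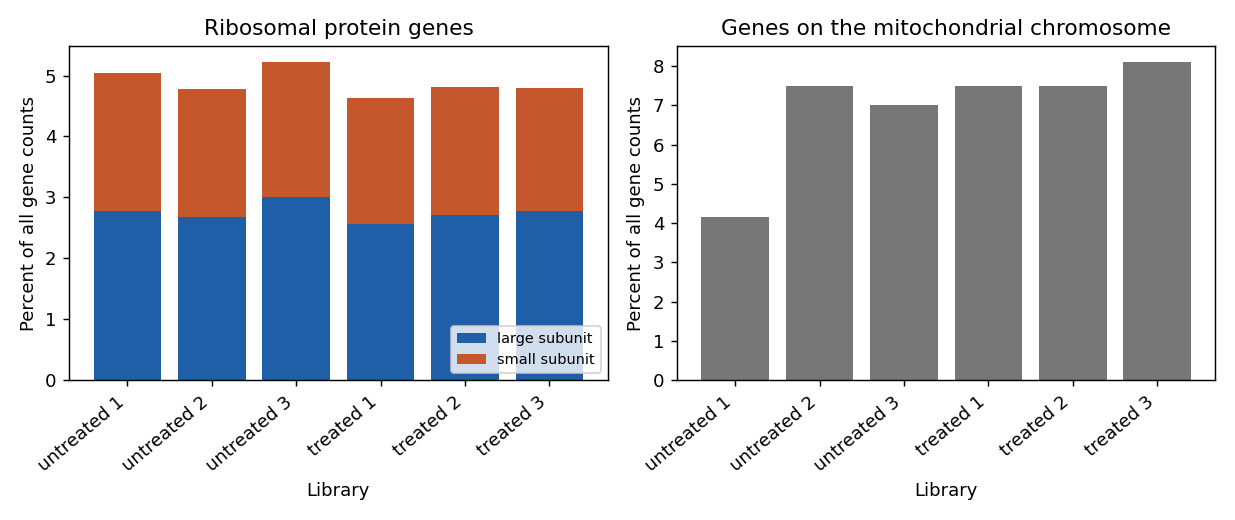
Percent of all gene counts, by library, for ribosomal protein genes (left, stacked bars of large and small subunit) and for genes of the mitochondrial chromosome (right). The ribosomal protein share ran from 4.63% to 5.23%, and untreated 1 stood at 4.16% mitochondrial counts.

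Levels of single genes, as TMM-scaled CPM averaged over the 6 libraries, spanned 2.83 to 2217, with a median of 590.3 (503 in the large and 702 in the small subunit) against 22.1 over all 15084 tested genes. TMM is a scaling of library sizes that assumes most genes alike. The highest CPM was that of RPS3, a small subunit protein at the mRNA entry channel. Next came the stalk protein RPLP0 and RPS2, also at the mRNA entry. The low end held RPS10 at 2.83, RPL36A at 5.07, RPL17 at 11.4 and RPL26 at 17.6. In all, 5 genes were under 20 CPM, and the other 72 stood at 87.5 or more.

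All 5 genes under 20 CPM share their strand and span with another protein-coding gene of the table, among them RPS10 with RPS10-NUDT3, RPL36A with RPL36A-HNRNPH2, RPL17 with RPL17-C18orf32 and RPL26 with AC135178.2. Of the other 72, only 4 do (RPL22, RPS15A, RPL36 and RPS13). The partners of the 5 low genes held 0 to 8 counts over all 6 libraries, against 295 counts for RPS10 and 1835 for RPL26. How the authors' counting treated reads that fall in 2 genes is not given in the sources used here, and its part in these low values was not tested. The levels of these 5 genes are therefore uncertain. The same limit applies to the 4 others that share a span, of which RPL22 (87.5 CPM) and RPS15A (101 CPM) were the next lowest genes.

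**Figure D2:**
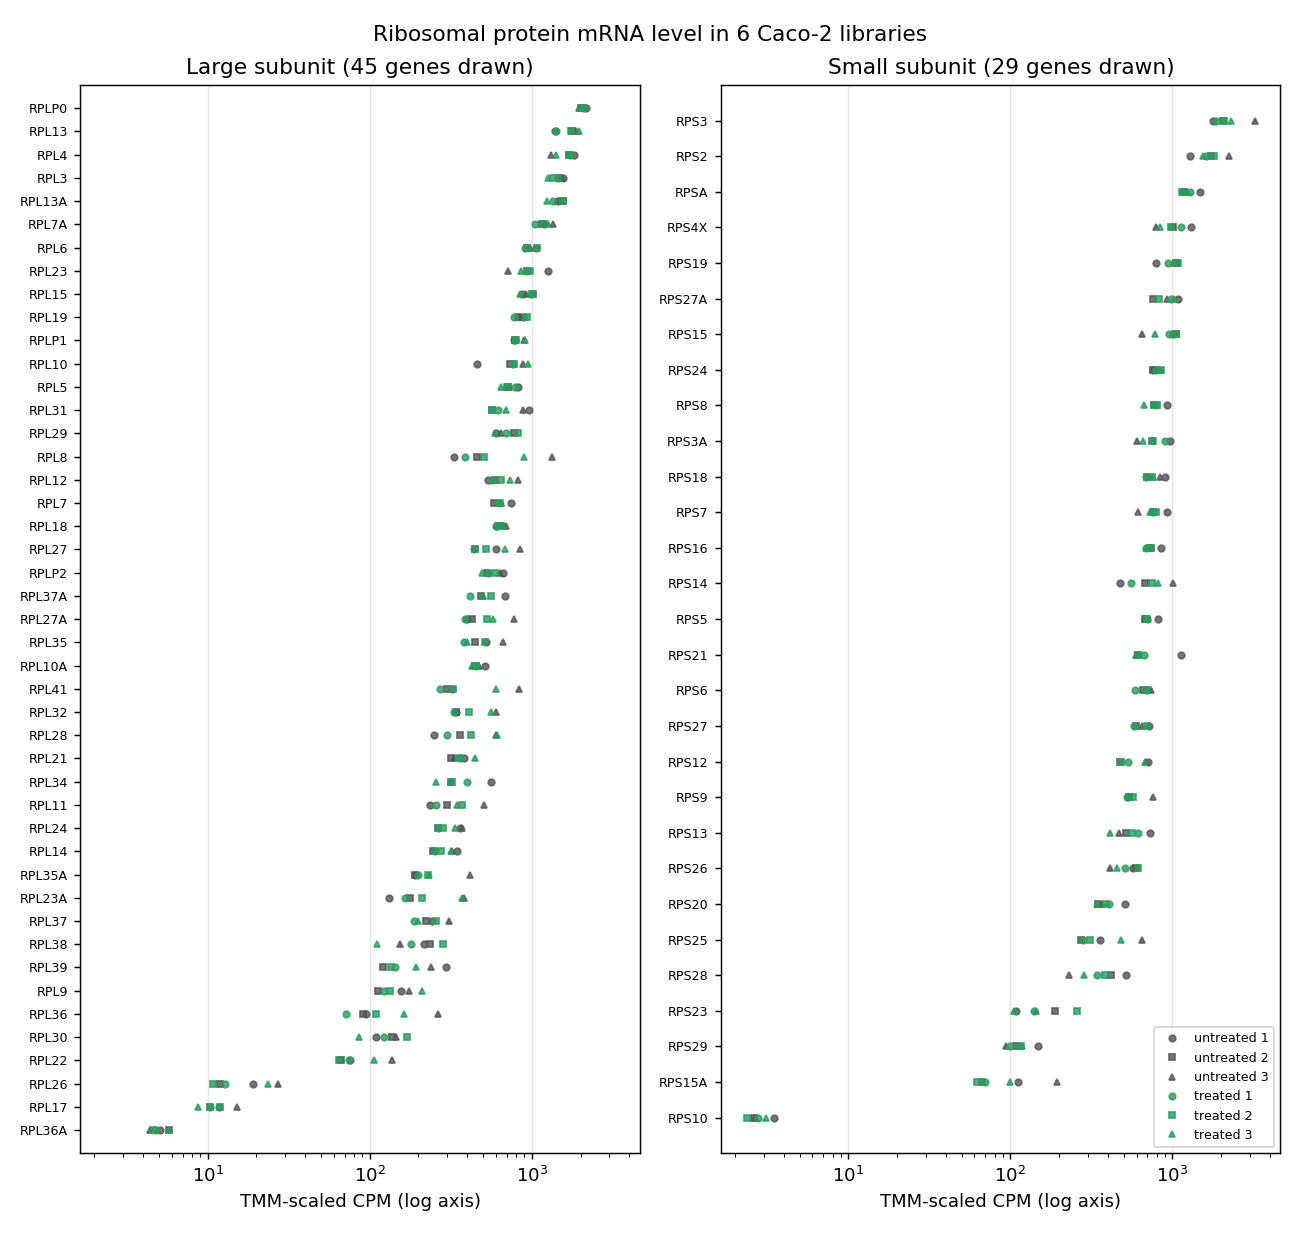
TMM-scaled CPM (log axis) of 74 ribosomal protein genes in the 6 libraries, large subunit left and small subunit right, ordered by mean. Most genes lie between 87.5 and 2217 CPM, and RPS10, RPL36A, RPL17 and RPL26 lie under 20.

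Counts in pseudogene copies touch the levels as well. The table lists 1137 pseudogenes named after the 77 genes, of which 359 had any count, and they took 0.189% to 0.247% of counts per library. For RPL9, a large subunit protein, pseudogenes held 29488 counts over the 6 libraries against 15825 for the gene itself, nearly all of them in RPL9P9 with 28904. Pseudogenes of RPS2 held 79394 counts, led by RPS2P5 with 57068, against 178578 for RPS2. Those of RPS10, RPL39 and RPL26 held 29.6%, 23.2% and 21.8% of the joint counts of gene and copies. These 5 levels, and to a lesser degree those of RPL7, RPS28 and RPS7 (14.96% to 19.6%), may depend on how reads were shared out, which was not tested. Copies were matched by name, and their sequences were not compared with those of the genes.

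On the deposited FPKM scale, which divides by gene length as the authors list it, the median was 195 over the 77 genes, 140 in the large and 259 in the small subunit, against 4.54 over all tested genes. RPS12 led at 767 FPKM, followed in the small subunit by RPS2 at 699, RPS21 at 680 and RPS27 at 611. In the large subunit RPL13A led at 600, before RPL7A at 531, RPLP0 at 507 and RPL19, a protein that also reaches to the small subunit, at 483. Among the lowest FPKM values were RPS10 at 1.19, RPS29 at 11.5 and RPS15A at 14.9 in the small subunit. In the large subunit they were RPL36A at 1.27, RPL17 at 4.57, RPL26 at 6.92 and RPL22 at 18.5. Listed lengths run from 767 bases for RPS12, the leader, to 9845 for RPS29, which ranked 70 of 77 by CPM and 72 by FPKM. RPS24, at 7857 listed bases, ranked 19 by CPM and 56 by FPKM. The mature mRNAs of this family are much shorter than most of these lengths, so the FPKM order reflects the annotation as well as abundance.

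The steadiest gene over the 6 libraries was RPLP0, the stalk protein that anchors RPLP1 and RPLP2 and is widely used as a reference gene in PCR. Its untreated libraries stood at 2172, 2008 and 1961 CPM and its treated ones at 2071, 2081 and 1995. Its SD was 0.0532 on the log2 CPM scale, the smallest of the 77. RPS24, with an SD of 0.0727, had 760.0, 761 and 827 CPM in untreated and 787, 848 and 845 in treated libraries. RPL18 (SD 0.0792) and RPL10A (SD 0.0883) followed.

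At the other end, RPL8, a protein next to the peptidyl transferase centre, had the largest SD, 0.771. The untreated libraries had 329.5, 461 and 1329 CPM and the treated ones 386, 507 and 892. Replicate 3 was thus high in both groups, and the groups overlapped. RPL36 (SD 0.684) stood at 94.8, 90.4 and 265 CPM in untreated and at 71.9, 109 and 162 in treated libraries. RPL41, a very small peptide between the subunits, had 322, 299 and 838 CPM in untreated and 271, 326 and 602 in treated libraries. RPL23A, which lies at the exit of the tunnel for the new protein, had 131, 178 and 381 and then 166, 211 and 374. In each of these 4 genes the highest untreated library was untreated 3 and the highest treated one was treated 3.

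The 77 genes did not move as a block across libraries. Measured as untreated 3 minus untreated 1 in log2 CPM, 39 genes were above 0 and 38 below, with 27 of 46 large subunit and 12 of 31 small subunit genes above. The gap ran from -1.16 in RPS28 to 2.01 in RPL8. It exceeded 1 upward in 9 genes, among them RPL8, RPL23A, RPL36, RPL41, RPL28, RPL35A, RPL11 and RPS14, and downward in RPS28 alone. Together these are 13.0% of the 77, against 17.0% of all tested genes and 6.50% of the 2323 tested genes with a mean of at least 100 CPM.

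RPL11, which with RPL5 and the smallest ribosomal RNA forms a particle that can bind the p53 regulator MDM2, had 235, 299.7 and 508 CPM in untreated 1 to 3. RPL5 itself had 828, 709 and 729, so untreated 3 lay above untreated 1 for RPL11 and below it for RPL5. RPS14, the small subunit gene whose loss is linked to the anaemia of the 5q- syndrome, had 472, 676 and 1007 CPM. RPS28 had 516, 417 and 230.5, and RPS4X 1297, 1012 and 790.1. RPS28 and RPS4X were thus lower in untreated 3 than in untreated 1, where RPS14 and RPL11 were higher.

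The same gap was then taken between treated 3 and treated 1, which share no library with the first. All 9 genes above 1 in the untreated gap were above 0 in the treated gap, from 0.21 in RPL35A to 1.21 in RPL8. Of the 11 genes below -0.5 in the untreated gap, 10 were below 0 in the treated gap, the exception being RPS29. Over all 77 genes the sign matched in 55 (71.4%), against 68.6% of all tested genes and 73.4% of those with at least 100 CPM. Pearson's r between both gaps was 0.75 across the 77 genes, 0.45 across all 15084 and 0.69 across the 2323 abundant ones. The points share 4 libraries and genes are not independent replicates, so these are descriptions only, and the share of matching signs lay near that of all tested genes.

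**Figure D3:**
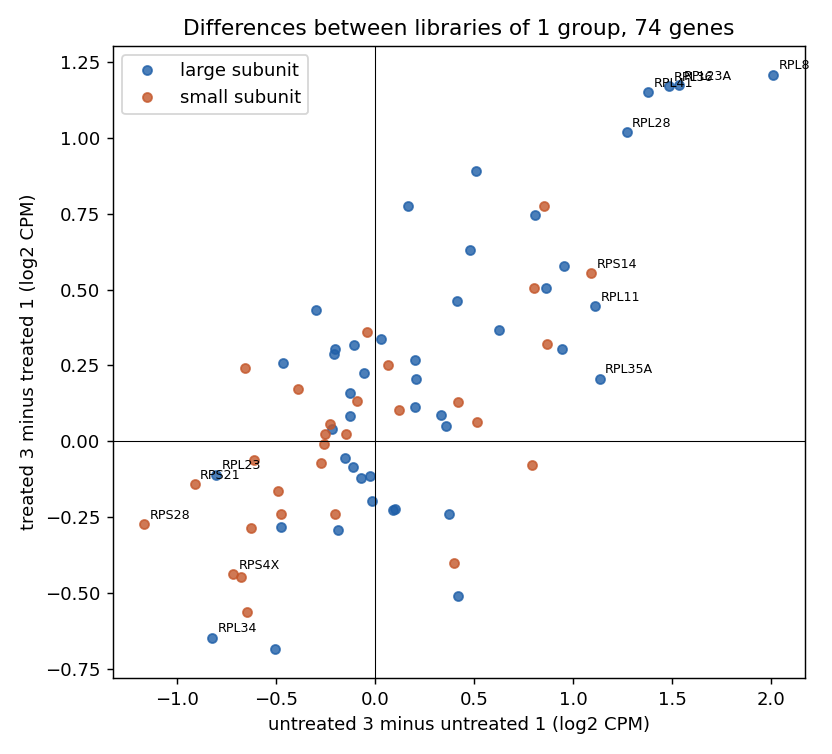
Gap between untreated 3 and untreated 1 (x axis) and between treated 3 and treated 1 (y axis), both in log2 CPM, for 74 genes, coloured by subunit. RPL8, RPL36, RPL23A and RPL41 lie at the upper right, and RPS28, RPS21, RPL34 and RPL23 at the left below 0.

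Untreated 1 had the highest value of the 6 libraries in 30 genes and the lowest in 18. For untreated 3 these numbers were 27 and 12. Untreated 2 was highest in 1 gene, treated 1 in none, treated 2 in 11 and treated 3 in 8. The lowest value fell in untreated 2 for 11 genes, in treated 1 for 15, in treated 2 for 5 and in treated 3 for 16. After centring each gene on its mean over 6 libraries, the median of the small subunit genes was 0.22 in untreated 1 and between -0.06 and 0.02 in the other 5. The large subunit median was 0.20 in untreated 3, 0.05 in untreated 1, -0.17 in treated 1 and -0.11 in untreated 2. Tested coding genes outside the group with a listed length under 1000 bases (119 genes) stood at -0.26 in untreated 1 and 0.36 in untreated 3 on the same scale. Untreated 1 was also the library with 4.16% mitochondrial counts; the part of transcript length or mitochondrial share in these gaps was not tested. Pearson's r between log2 listed length and the untreated gap was 0.0018 across the 77 genes, -0.20 in the large and 0.15 in the small subunit. It was -0.14 across all tested genes and -0.22 across those of at least 100 CPM; genes are not independent replicates, so these are descriptions.

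**Figure D4:**
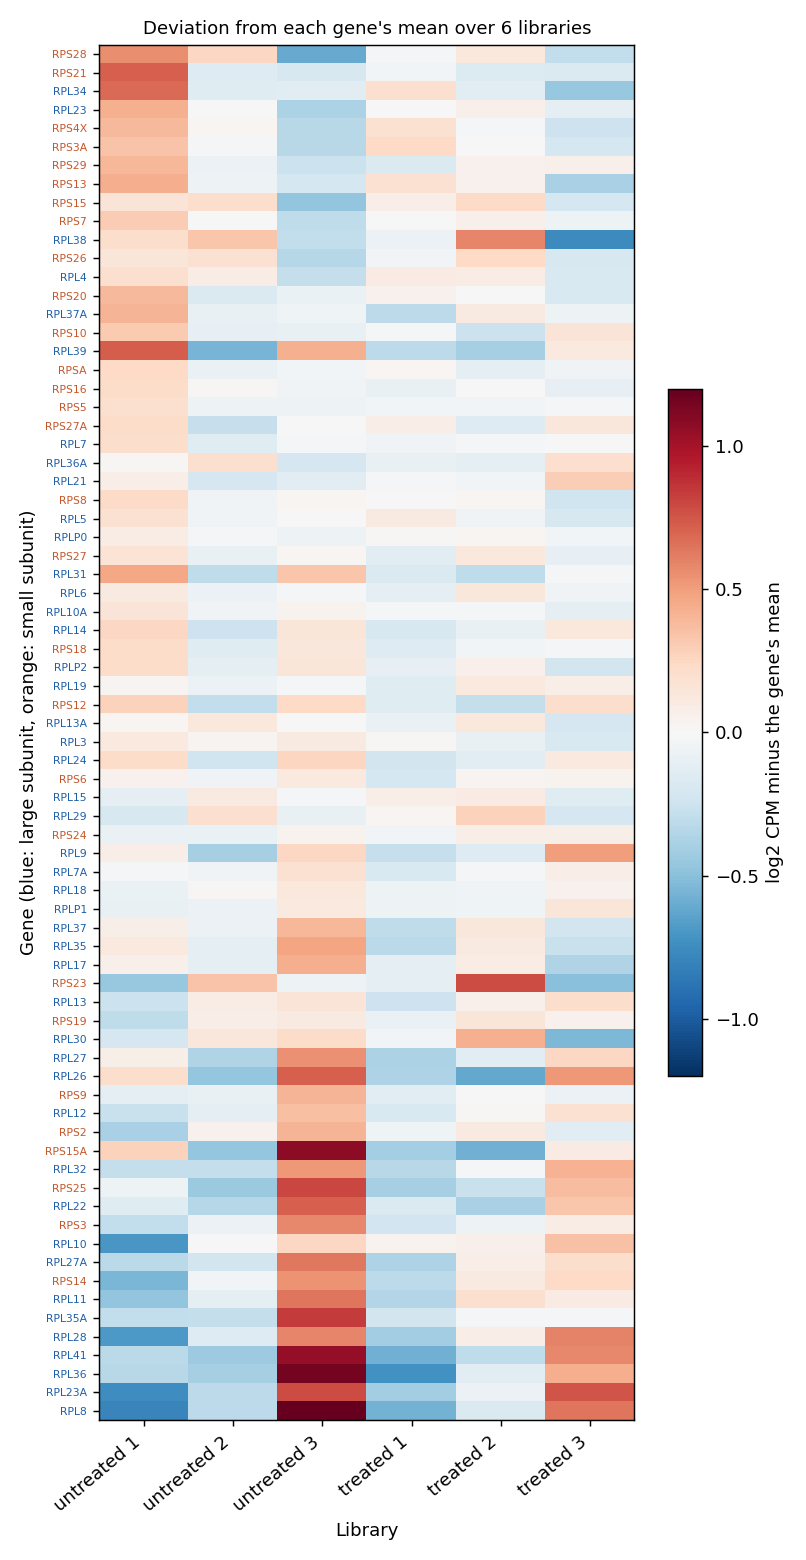
Heat map, for 74 genes, of log2 CPM minus each gene's mean over the 6 libraries (colour, limits -1.2 to 1.2), genes ordered by the gap between untreated 3 and untreated 1. The lower rows are red in untreated 3 and mostly in treated 3, and the upper rows are red in untreated 1.

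The spread within groups was wider in untreated cells. Over the 77 genes, SDs on the log2 CPM scale had a median of 0.30 among untreated and 0.17 among treated libraries, close to 0.30 and 0.19 over all tested genes. Abundant genes of at least 100 CPM had 0.23 and 0.12. In 58 of the 77 genes (75.3%) the untreated SD was the larger, as in 72.0% of all tested genes. By subunit these were 31 of 46 large and 27 of 31 small subunit genes.

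The comparison of M2-exo treated with untreated cells asked whether the vesicles changed the mRNA of the recipient cells. None of the 77 genes passed: edgeR's quasi-likelihood test gave an adjusted p of 0.9999 for each, and the share of all tested genes called was 0% (0 of 15084). At an unadjusted p under 0.05, edgeR counted 0 of the 77 against 0.736% of all tested genes (111), DESeq2 counted 1 of the 77 and limma-voom 0. The 95% interval of the log2 fold change stayed inside 2-fold, up or down, for 70 of the 77 genes and inside 1.5-fold for 45, and its median half-width was 0.43.

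Log2 fold changes, treated over untreated, were below 0 in 58 of the 77 genes and above 0 in 19, with a median of -0.09. Over all tested genes 52.9% were below 0 and the median was -0.01. Of tested genes of at least 100 CPM, 56.7% were below 0, with a median of -0.01. Of the 119 coding genes outside the group with a listed length under 1000 bases, 63.9% were below 0, with a median of -0.09. The median was -0.09 in each subunit, with 34 of 46 large and 24 of 31 small subunit genes below 0. These counts are descriptions of correlated genes and no test was made of them. Their size, and the sign of each subunit median, moved with the untreated libraries that lay apart. The median of the 77 genes ran from -0.11 to -0.03 with 1 library left out. Without untreated 1, 47 genes were below 0, the median was -0.05, and the small subunit median became 0.02 while the large subunit median was -0.10. Without untreated 3, 41 genes were below 0, the median was -0.03, and the large subunit median became 0.03 while the small subunit median was -0.10.

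**Figure D5:**
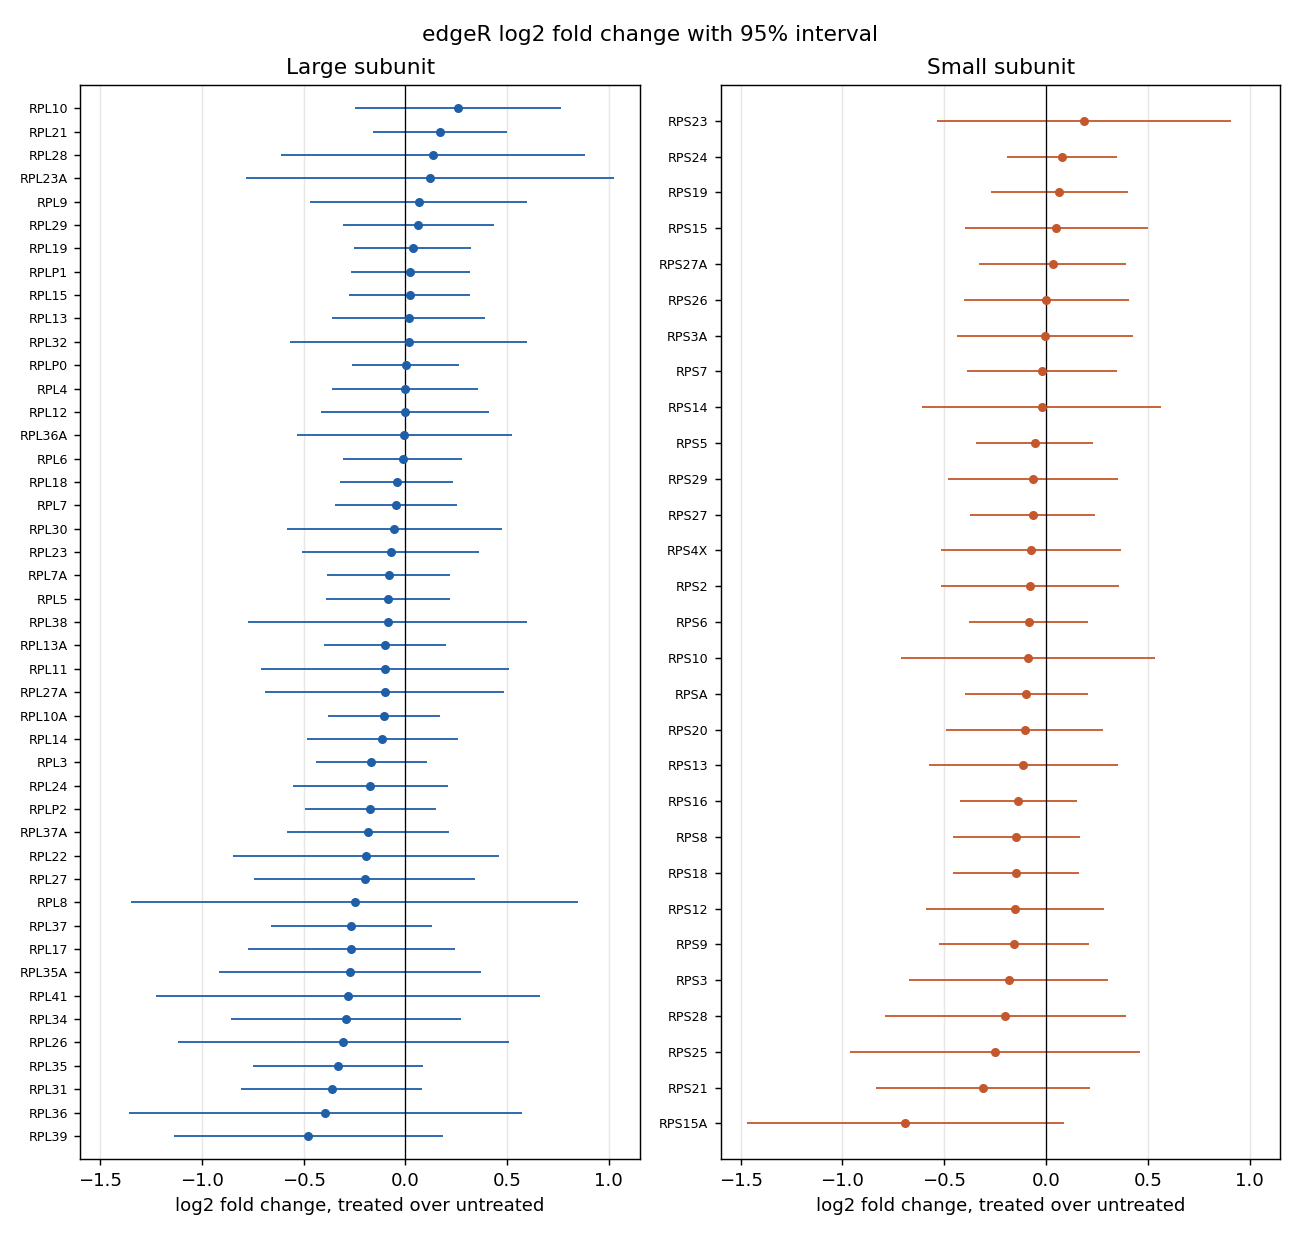
Log2 fold change of 74 genes (points) with its 95% interval from edgeR (bars), large subunit left and small subunit right. The 74 genes drawn all have intervals that include 0, and their points run from -0.69 for RPS15A to 0.26 for RPL10.

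RPL3, a large subunit protein that reaches the peptidyl transferase centre, was the one gene whose groups did not overlap. It stood at 1559, 1466 and 1543 CPM in untreated and at 1451, 1351 and 1265 in treated libraries, a mean of 1522 ± 49.7 and 1356 ± 93.0 (SD, n = 3 each). The log2 fold change was -0.17 (SE 0.12), with an edgeR adjusted p of 0.9999. Treated values lay all below untreated ones in 1 of the 77 genes, against 2.3% of all tested genes, and all above in 0, against 1.65%.

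The lowest fold change was that of RPS15A, a small subunit protein, which stood at 112, 66.9 and 195 CPM in untreated and at 69.8, 62.2 and 99.2 in treated libraries (log2 -0.69, SE 0.35, unadjusted p = 0.0754, edgeR). Without untreated 3 its log2 fold change was -0.19. RPL39, a tunnel exit protein, had 295, 120.4 and 239.8 CPM in untreated and 143, 135 and 193 in treated libraries (log2 -0.48, SE 0.29). Untreated 2 was the lowest of its 6 values, and the log2 fold change was -0.19 without untreated 1 and -0.75 without untreated 2. RPL36 followed at -0.39 (SE 0.43), and at 0.32 without untreated 3. RPL31 had 962, 566 and 881 CPM in untreated and 618, 567 and 689.8 in treated libraries (-0.36, SE 0.20), and was at -0.20 without untreated 1. RPL35, also at the tunnel exit, had 520.4, 444 and 668 and then 384, 516 and 398 (-0.33, SE 0.18), and was at -0.14 without untreated 3. With 1 library left out, RPS15A ran from -0.98 to -0.19 and RPL36 from -0.71 to 0.32. RPL31 then ran from -0.54 to -0.20 and RPL35 from -0.47 to -0.14. In all 5 genes the groups overlapped.

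Among the genes with high fold changes, RPL10, which is built late into the large subunit, had 458, 739 and 880.5 CPM in untreated and 765, 776 and 944 in treated libraries (0.26, SE 0.22). Untreated 1 was its lowest value, and without it the log2 fold change was 0.04. With 1 library left out, RPL10 ran from 0.04 to 0.48. RPS23, a protein of the decoding site, had 109, 189 and 143 and then 139, 258 and 105 (0.18, SE 0.32), and was at -0.27 without treated 2. RPL21 (0.17, SE 0.15) followed, at 0.075 without treated 3, and ran from 0.075 to 0.26 with 1 library left out. RPL28 (0.14, SE 0.33) was at -0.11 without untreated 1, and ran from -0.14 to 0.55 with 1 library left out.

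Among the stalk proteins, which recruit elongation factors to the ribosome, RPLP0 had a log2 fold change of 0.00 (SE 0.12), RPLP1 0.03 (SE 0.13) and RPLP2 -0.17 (SE 0.14). RPLP1 stood at 775, 787 and 896 CPM in untreated and at 792, 796 and 913 in treated libraries. RPLP2 had 664, 530.1 and 633 and then 534, 597 and 491. The stalk thus held near-equal means in both groups for RPLP0 and RPLP1, with intervals of -0.26 to 0.27 and -0.27 to 0.32.

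Of the other large subunit genes chosen for their role, RPL5 (-0.08, SE 0.14) and RPL11 (-0.10, SE 0.27) lay close to 0. RPL22 was at -0.19 (SE 0.29), or 0.22 without untreated 3, and RPL41 at -0.28 (SE 0.42). The values of RPL41 and RPL11 turned with 1 library: without untreated 3 they were 0.38 and 0.29. The same holds for RPL8, at -0.25 (SE 0.49) with all 6 libraries and 0.60 without untreated 3. RPL23A, at 0.12 (SE 0.40), was at 0.70 without the same library. Treated 3 was the highest treated library of RPL8, RPL41 and RPL23A, and it stayed in when untreated 3 was left out. With 1 library left out, RPL8 ran from -0.65 to 0.60, RPL41 from -0.69 to 0.38 and RPL23A from -0.27 to 0.70.

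Among small subunit genes, RPS6, the substrate of the S6 kinases downstream of mTOR, stood at 701, 659 and 735 CPM in untreated and 586, 692 and 697 in treated libraries (log2 -0.09, SE 0.13). RPS19, the gene most often mutated in Diamond-Blackfan anaemia, was at 0.07 (SE 0.15). RPSA, a small subunit protein also known as a laminin receptor precursor, had 1479, 1185 and 1225 CPM and then 1274, 1151 and 1211 (-0.10, SE 0.13). Untreated 1 was the highest of the 6, and without it the value was 0.015. RPS3 was at -0.18 (SE 0.22), with untreated 3 at 3235 CPM above the other 5 at 1772 to 2308, and at 0.13 without that library. RPS2 was at -0.08 (SE 0.19) and at 0.14 without untreated 3, RPS26 at 0.00 (SE 0.18), and RPS27A, made as a fusion with ubiquitin, at 0.03 (SE 0.16). RPS21 was at -0.31 (SE 0.23), with untreated 1 at 1122 CPM against 597 to 667 in the other 5. It was 0.06 without that library, and ran from -0.45 to 0.06 with 1 library left out.

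Genes with the TOP motif at a listed start (46) had a median log2 fold change of -0.10, with 35 below 0. The 16 with a listed start and no motif had -0.02, with 10 below 0, and the 15 without a listed start had -0.08, with 13 below 0. Whether the motif was present was read from annotated starts only, and the difference between these medians was not tested.

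Both ribosomal proteins described from outside the naming rule gave values in the same range, neither of them called by edgeR: FAU -0.20 (SE 0.21), and RACK1, a small subunit scaffold protein, -0.04 (SE 0.14). Of 8 listed paralogs, 6 were tested, all with values below 0 and none called (0 higher and 0 lower). They ran from RPL39L at -0.39 (SE 0.42, mean 2.26 CPM) and RPL36AL at -0.37 (SE 0.21, 78.7 CPM) to RPL7L1 at -0.03 (251 CPM) and RPL22L1 at -0.01 (37.2 CPM). RPL36AL held more counts than RPL36A at 5.07 CPM, RPL26L1 (24.7 CPM) more than RPL26, and RPL10L had 0 counts in every library. RPL36A and RPL26 are among the genes that share a span with another gene and whose levels are uncertain. Which of gene and paralog is the more abundant is therefore uncertain too.

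Of 16 other mRNAs known to carry a TOP sequence, 15 were tested and none was called. Their median log2 fold change was -0.02, with 9 of 15 below 0. EEF1A1, the elongation factor that brings aminoacyl-tRNA to the ribosome, was the most abundant of them at 11052 CPM (-0.05, SE 0.13), and EEF1G had 0 counts in all 6 libraries. The counting of reads shared between genes is not given, and its part in the 0 of EEF1G was not tested. That 0 cannot be read as absence of the mRNA. Extremes were TPT1 at -0.13 and HNRNPA1 at -0.12, and EEF1D at 0.21 and PABPC1, the poly(A)-binding protein, at 0.11. Genes of ribosome assembly and ribosomal RNA synthesis (35 of 36 tested) had a median of 0.02, with 16 below 0 and 19 above and none called. Their extremes were NHP2 at -0.24 and NOB1 at -0.18, and NOP56 at 0.15 and GRWD1 at 0.12.

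Among 8 growth regulators, none was called. MYC, a transcription factor that drives ribosome production, stood at 0.38 (SE 0.18, unadjusted p = 0.0683, edgeR) and LARP1, which binds TOP mRNAs, at 0.04 (SE 0.15). EIF4EBP1, a target of mTOR that restrains translation, was at -0.20 (SE 0.29), and MTOR at -0.08 (SE 0.12). The 76 tested mitochondrial ribosomal proteins, which build the separate ribosome of that organelle, had a median of -0.05 with 54 below 0 (71.1%) and none called. They ran from MRPL12 at -0.81 (SE 0.82) and MRPL52 at -0.46 to MRPS35 at 0.14 and MRPL38 at 0.30 (SE 0.50, mean 1.83 CPM). MRPL12 had 44, 102 and 672 counts in untreated and 79, 139 and 251 in treated libraries.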

How the data were processed

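Counts per gene and FPKM values (counts per gene length and library size) were used as deposited by the authors for 6 Caco-2 libraries. The submitters' processing notes name CASAVA, HISAT2, featureCounts and GRCh38. For tool versions, strand setting and reads shared between genes, nothing is given in the sources used here. Both gene tables hold 3 columns that match no sample and were not used. The miRNA table was not used.

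Counts were filtered (filterByExpr by group, leaving 15084 genes) and fitted with edgeR 4.0.16 in R 4.3.3 (TMM, quasi-likelihood F test, two-sided, Benjamini-Hochberg over all tested genes, threshold 0.05). SEs are the size of the change over the square root of F; log2 CPM used a prior count of 2. Single-library values are TMM-scaled CPM. Alternatives used DESeq2 1.42.0 and limma 3.58.1, other scalings, filters, FPKM pseudocounts of 1 and 0.1, the replicate block and leaving out each library. Named genes are the 5 highest and 5 lowest fold changes, 4 highest and 4 lowest FPKM per subunit, the 4 largest and 4 smallest SDs, 16 genes chosen by role, and in the other lists the 2 highest and 2 lowest fold changes; other genes were named after their values were seen. Members and lists were chosen with earlier results of these data known. Some genes are not reported here by name; they stay in the counts and medians over the group, and the plots draw the other 74.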

Additional observations from a re-analysis of the deposited data

How the results depend on the processing

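No ribosomal protein gene passed the threshold under any of the 16 alternatives run. Over all genes the count past the threshold was 6 with no filter, and 0 to 1 when 1 library was left out, with 1 gene called without treated 2. At an unadjusted p under 0.05, all genes gave 111 by edgeR, 82 by DESeq2, 104 by limma-voom, 493 with no filter, 173 and 252 on log2(FPKM + 1) and log2(FPKM + 0.1), and 76 to 370 with 1 library left out. The ribosomal protein genes at that p numbered 4 with no filter, 1 by DESeq2 and 0 to 3 with 1 library left out. With the replicate block, 0 ribosomal protein genes passed, the median was -0.08, 53 were below 0, and unadjusted counts were 2 of these genes and 211 of all. Deviations of same-numbered libraries correlated at 0.28, -0.06 and 0.48 for numbers 1 to 3. Libraries 1 and 3 correlated best with their own number and library 2 did not, and the labels do not say what a number shares, so the numbers were not taken to pair the samples. Leaving out 1 library gave 41 to 63 genes below 0, lowest without untreated 3 and highest without treated 2. The median then ran from -0.11 to -0.03, the large subunit's from -0.13 to 0.03 and the small subunit's from -0.12 to 0.02. Of 656 values of named genes under the alternatives, 610 kept their sign and 46 did not, and none passed the threshold. Scaling by total counts turned RPLP0 to -0.0053 and RPS26 to -0.0098, and RPL36A became 0.0095 with no filter and 0.0090 with genes kept from a mean CPM of 1. The other reversals came from leaving out 1 library, with these ranges of log2 fold change: RPL11 (-0.30 to 0.29), RPL18 (-0.084 to 0.025), RPL19 (-0.015 to 0.13), RPL22 (-0.41 to 0.22), RPL23A (-0.27 to 0.70), RPL26 (-0.71 to 0.039), RPL28 (-0.14 to 0.55), RPL36 (-0.71 to 0.32), RPL36A (-0.10 to 0.12). A second set was RPL41 (-0.69 to 0.38), RPL7A (-0.13 to 0.0087), RPL8 (-0.65 to 0.60), RPLP0 (-0.013 to 0.053), RPLP1 (-0.030 to 0.11), RPS10 (-0.18 to 0.064), RPS19 (-0.049 to 0.15), RPS2 (-0.25 to 0.14), RPS21 (-0.45 to 0.059). The rest were RPS23 (-0.27 to 0.45), RPS26 (-0.13 to 0.12), RPS27 (-0.15 to 0.012), RPS27A (-0.067 to 0.17), RPS29 (-0.18 to 0.15), RPS3 (-0.34 to 0.13), RPS6 (-0.12 to 0.012), RPSA (-0.14 to 0.015). The cause of these changes was not tested beyond the left-out library itself, and 3 libraries per group limit the precision of each value.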
